A study of Mus musculus with 32 samples.

Results

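The liver secretes most of the proteins of blood plasma, and 48 genes that encode them were followed here in mouse liver cell fractions and in colorectal carcinoma samples. The genes were named as plasma proteins of the hepatocyte by a rule that holds no measured value, although earlier results of these data were known when the list was drawn up. All 48 are among the 34821 gene names on the array, 35 with 1 probe and 13 with 2 probes, so that 61 of 55681 probes belong to them. By role they comprise 12 carrier and transport proteins, 10 apolipoproteins, 9 clotting factors with fibrinogen and kininogen, 9 inhibitors of clotting and of proteases together with plasminogen and vitronectin, 4 heavy chains of the inter-alpha-trypsin inhibitor, and 4 genes of terminal complement and mannose-binding lectin.

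The study asked how endothelial, Ito and Kupffer cells of the liver differ once colon carcinoma has colonized the organ. Male Balb/c mice, with no altered allele named, received the syngeneic colon carcinoma line C26 into the spleen, and the tumor microenvironment (TME) cells came from their colonized livers. Control mice received PBS by the same route. Perfusion with collagenase and Percoll gradients gave endothelial and Ito fractions, from which Kupffer cells were taken by adherence, and all fractions were cultured briefly in serum-containing medium. The fractions were thus enriched by density and adherence and not sorted by a marker. The study checked them by immunochemistry for a marker of each cell type and reported high purity. The 8 groups are control and TME endothelial cells (EC and ET), control and TME Ito cells (IC and IT), control and TME Kupffer cells (KC and KT), tumor liver metastasis (TM) and primary colorectal cancer (TP), with 4 replicates each on 32 channels of 16 arrays. The methods call the replicates biological, and the sources used here do not say how many mice went into one. EC, IC, KC and TM carried Cy3 and ET, IT, KT and TP carried Cy5, so that dye cannot be told apart from TME against control, nor from TM against TP. Endothelial and Ito arrays were on one slide and Kupffer and tumor arrays on the other, so that slide cannot be told apart from cell type when Kupffer cells are set against the other cells.

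Hepatocytes, the parenchymal cells of the liver, secrete albumin, apolipoproteins, clotting factors, protease inhibitors and complement into the blood of the sinusoids. Endothelial cells, Ito cells (the vitamin A-storing stellate cells) and Kupffer cells (the resident macrophages) line or surround the same sinusoids and are not the main source of these proteins. In hepatocytes the transcription of this class of genes is known to rest on factors such as HNF1, HNF4 and the forkhead proteins. Some members, such as haptoglobin, hemopexin, fibrinogen and Itih4, are acute-phase genes that inflammation raises in hepatocytes.

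The probes shown next are those on which several results below turn: the single probe of Alb (albumin), and both probes of Itih4, Apoa2 and Cp, genes whose probes differ in level or in behaviour. Positions are those of mm9 as the array files give them, all on the plus strand, and of some probes only the first 30 bases are given. No letter is marked.
Alb probe at chr5:90901598-90901657: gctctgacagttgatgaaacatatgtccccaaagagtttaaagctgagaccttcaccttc
Itih4 probe used at chr14:31714970-31715029, first 30 bases: gaggccgagaccttgatgggaagaggatgc
Itih4 other probe at chr14:31711222-31711281: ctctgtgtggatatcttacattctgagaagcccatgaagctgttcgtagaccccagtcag
Apoa2 probe used at chr1:173156320-173156379: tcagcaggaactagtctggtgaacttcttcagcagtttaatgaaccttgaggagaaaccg
Apoa2 other probe at chr1:173156445-173156504, first 30 bases: gctagagcccctctccctaccttctgcctg
Cp probe used at chr3:19907511-19907570, first 30 bases: gcttgcagtgtctatatgtactagagataa
Cp other probe at chr3:19889071-19889130: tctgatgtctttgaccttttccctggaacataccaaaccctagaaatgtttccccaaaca

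The promoter letters of the members were also read, whatever their likeness to each other across the liver fractions. They came from RefSeq windows of 250 bases before the start of a gene in GRCm38.p6. This build, which is not that of the probe positions, was joined to the array by gene symbol only. A window was found for 38 of the 48 members. The letters GTTAAT, a half-site of the hepatocyte factor HNF1, occur on either strand in 11 of the members' 41 windows (26.8%), against 6.43% of 32851 windows of that length in the table. Those of Alb, Fgb (the beta chain of fibrinogen) and Vtn (vitronectin, an adhesive protein of plasma) are shown 5′ to 3′ on the strand of the gene, with the half-site in capitals.
Alb, plus strand, chr5:90460620-90460869: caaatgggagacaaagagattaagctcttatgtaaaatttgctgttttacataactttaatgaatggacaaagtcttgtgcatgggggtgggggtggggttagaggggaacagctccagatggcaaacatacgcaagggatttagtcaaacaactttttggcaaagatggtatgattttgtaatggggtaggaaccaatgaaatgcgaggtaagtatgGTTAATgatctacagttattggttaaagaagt
Fgb, minus strand, chr3:83049864-83050113: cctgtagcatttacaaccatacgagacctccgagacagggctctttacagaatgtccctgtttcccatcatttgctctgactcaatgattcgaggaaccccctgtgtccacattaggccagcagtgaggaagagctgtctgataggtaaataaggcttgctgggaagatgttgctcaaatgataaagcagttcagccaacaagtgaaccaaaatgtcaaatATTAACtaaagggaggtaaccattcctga
Vtn, plus strand, chr11:78498870-78499119: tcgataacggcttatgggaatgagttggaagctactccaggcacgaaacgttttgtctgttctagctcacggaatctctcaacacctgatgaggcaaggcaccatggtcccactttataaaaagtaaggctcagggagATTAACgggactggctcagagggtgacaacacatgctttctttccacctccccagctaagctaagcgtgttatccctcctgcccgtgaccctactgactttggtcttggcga
The half-site begins 32 bases before the start in Alb, 29 in Fgb and 112 in Vtn. The forkhead letters TGTTTNC, searched on both strands, lie in 17 member windows (41.5%, against 17.8% of all windows). The HNF4 letters CAAAGNNCA lie in 14.6% of member windows, against 5.49% of all, and the TATA letters TATAAA in 14.6%, against 12.4%. Such a match describes letters and is not a binding site.

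Between 38.4 and 57.1% of the 59305 spots of a channel were well above background, and no spot was saturated. Several libraries stood apart and bear on what follows. Over 17105 probes, the difference between the channels of Ito array 4 correlated with the mean of the other Ito arrays at r = -0.66, and that of Kupffer array 4 with the other Kupffer arrays at r = -0.60, whereas the remaining Ito and Kupffer arrays gave 0.19 to 0.47. Replicate 4 of IC, IT, KC and KT each correlated better with the opposite group than with its own, and TM replicates 1 and 4 correlated better with TP (0.988 and 0.991) than with TM (0.948 and 0.950). Smaller gaps of the same kind were found for TM replicate 3 (0.954 against 0.948), for TP replicate 2 (0.988 against 0.984) and, by no more than rounding shows, for KC replicates 1 and 2 (0.987 against 0.986 and 0.983 against 0.982). Among the liver libraries IT replicate 2 (r = 0.915 with its group) and KC replicate 3 (0.956) were the least like their own groups. ET replicate 2 correlated at 0.990 with its group, where each of the other ET replicates gave 0.997. The labels were kept as given. The counts of the comparisons among liver cells are given with all libraries and without replicate 4 of the Ito and Kupffer groups, IT replicate 2 and KC replicate 3, and most single genes only with all libraries. As to the named cell types, the endothelial markers were highest in EC (median of 14 genes 12.46 to 12.82 on the log2 scale) and the Kupffer markers highest in KT (13.61 to 14.33), but the Ito markers were not higher in IC (6.69 to 8.18) than in EC (8 to 8.92). Of the 14 Ito markers, 13 or 14 were well above background on each IC channel and 12 to 14 on each EC channel. Lrat, the retinol-esterifying enzyme of Ito cells, was well above background on 2 of 4 IC channels.

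The members were measured in all 6 liver cell groups and were largely at background in the tumor groups. The level of a probe is the log2 of its quantile-normalised intensity, and a single probe per gene, the one that varied most over the 32 channels, stands for it. In IC all 48 members were well above background on all 4 channels, in IT and KT 47, in EC 44, and in ET and KC 40, while in TM and in TP only 3 were. Of the rest, 33 in TM and 36 in TP were not well above background on any channel. The median level over the members had a mean of 11.16 in the 4 IC channels (SD 0.66) and of 11.40 in IT (SD 0.64), and these groups overlap. It was 8.19 to 9.84 in KC and 9.39 to 9.85 in KT, 8.39 to 8.46 in EC, and 7.39 to 8.37 in ET. Next to the values in IC and IT, those of every other liver group lay lower without overlap, whereas the ranges of EC and KC overlapped. In TM the median was 2.59 to 2.80 and in TP 2.44 to 3.32. A density fraction can hold cells of another type, and in such samples fewer cells of a type and less RNA per cell cannot be told apart.

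**Figure D1:**
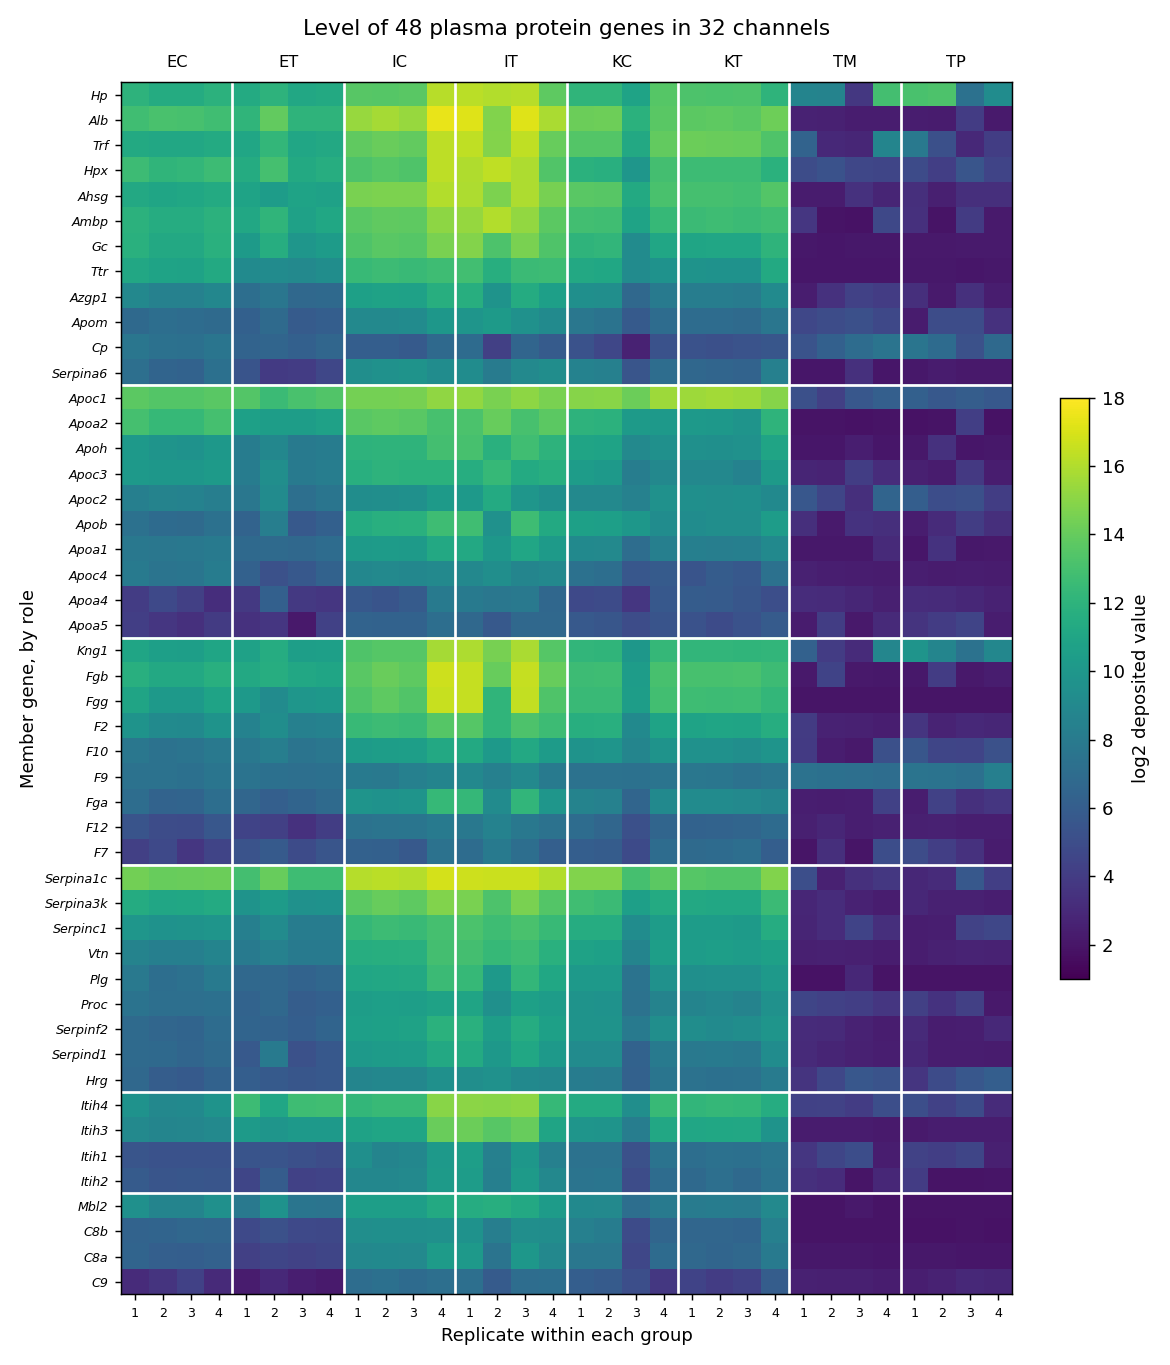
Log2 intensity of the 48 members (rows, ordered by role) in each of the 32 channels (columns, ordered by group and replicate), with colour for the level. The IC and IT columns are the brightest among the liver groups, the Cp row does not follow the other rows, and nearly all rows are dark in TM and TP.

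In each of the 6 roles IC stood above KC and KC above EC by the group means. Carriers had a group mean of their channel medians of 13.77 in IC, 11.29 in KC and 11.23 in EC. For the apolipoproteins these means were 11.11, 9.19 and 8.17, and for the clotting factors 10.92, 9.53 and 7.65. For the inhibitors they were 11.52, 9.49 and 7.59, for the inter-alpha-trypsin inhibitor heavy chains 10.56, 8.37 and 7.24, and for the complement and lectin genes 9.40, 6.94 and 6.39. Levels of different roles rest on different probes and are not set against each other. In KC, replicate 3 was the lowest channel for each of the 6 roles, with, for instance, 4.97 for complement and lectin, against 8.09 in the highest KC channel.

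**Figure D2:**
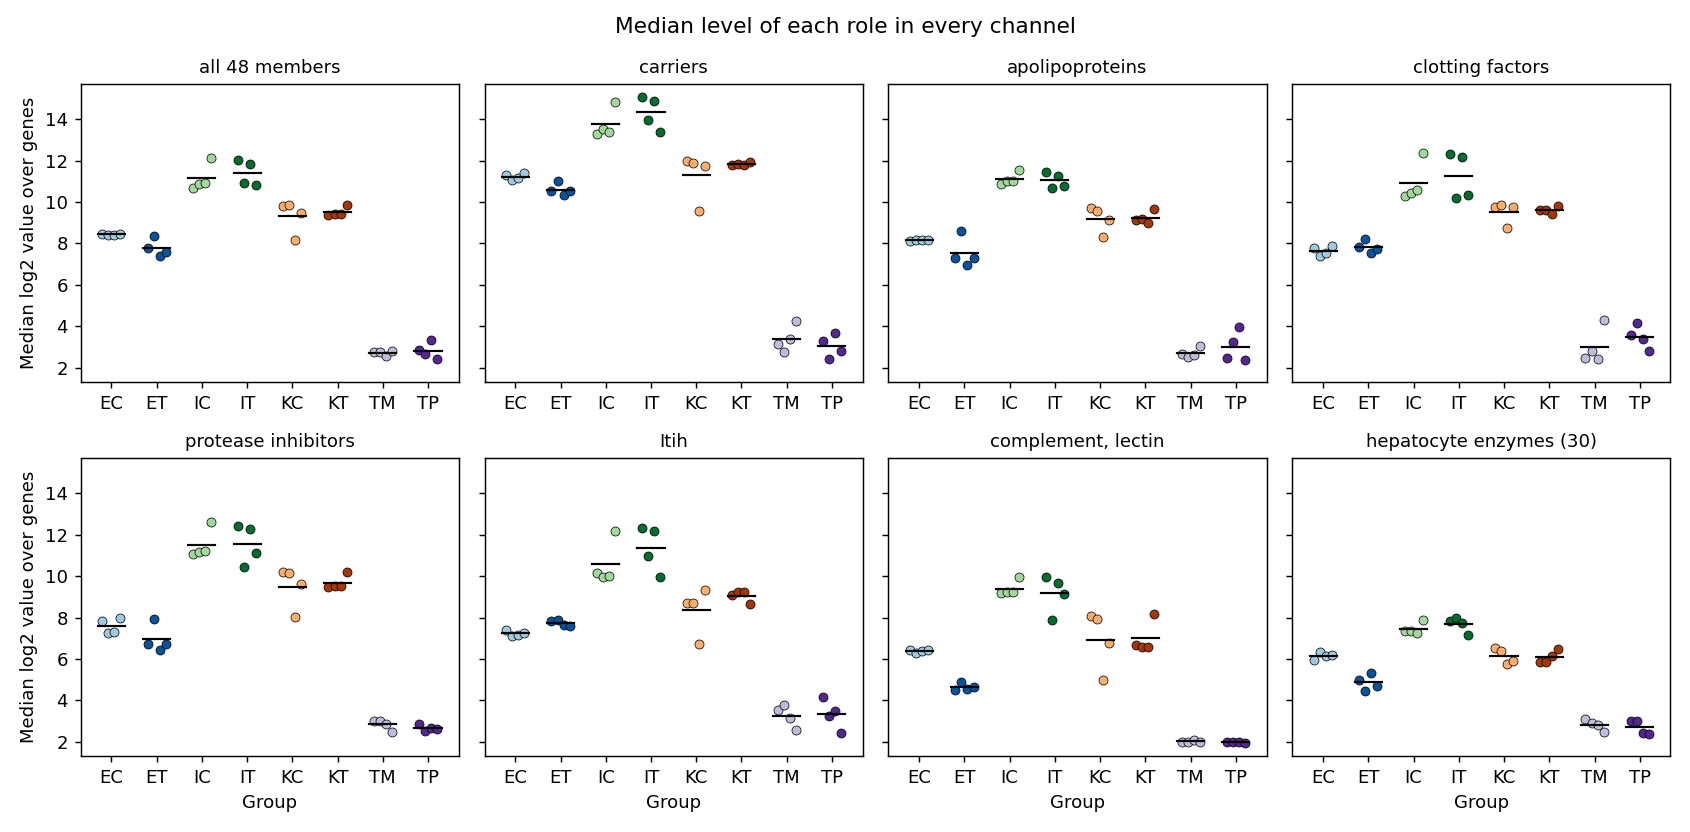
Median log2 intensity in every channel (points) by group, with the group mean as a line, over all 48 members, over each of the 6 roles and over 30 hepatocyte enzymes. The means of IC and IT are the highest in each panel, and TM and TP lie at the bottom.

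The difference between control Ito and control endothelial cells took in most of the members. IC and EC carried the same dye on the same slide. At an adjusted p under 0.05 in limma, 43 of the 48 members were higher in IC than in EC and none was lower, against 4.17% of all probes called higher and 5.72% called lower. The median difference over the members was 2.80 on the log2 scale, against 0.01 over all probes. Every IC channel was above every EC channel for 47 members, as it was for 9.95% of all probes, and Cp was the exception, with every IC channel below. At an unadjusted p under 0.05 the counts were 45 higher and 1 lower. The share of all probes at that cut was not computed, here or in the later comparisons. With IC replicate 4, IT replicate 2 and the other libraries of doubtful label or low likeness left out (replicate 4 of IC, IT, KC and KT, IT replicate 2 and KC replicate 3), 43 members were higher and 1, Cp, was lower, with a median of 2.54, where 7.53% and 9.95% of all probes were called.

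Of the 12 carriers, 9 were higher in IC than in EC, with a median difference of 2.35 over the role. Alb, the main carrier and osmotic protein of plasma, read 12.80, 13.13, 13.08 and 12.81 in EC replicates 1 to 4. In IC it read 15.35, 15.70, 15.41 and 17.45. Each IC channel lay above each EC channel, with replicate 4 the highest, and the difference was 3.02 (SE 0.56, 8.12-fold, adjusted p = 0.000554). Without the doubted libraries it was 2.53 (adjusted p = 8.13e-05).

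Ttr, transthyretin, which carries thyroxine and retinol-binding protein, read 11.22, 10.83, 10.82 and 11.30 in EC and 12.43, 12.66, 12.53 and 12.73 in IC. The gap was smaller than that of Alb, at 1.54 (SE 0.36, 2.92-fold, adjusted p = 0.00495), and the groups did not overlap. Trf, transferrin, the iron carrier, lay between 11.19 and 11.36 in EC and read 13.82, 14.14, 13.94 and 16.32 in IC. Its IC replicate 4 stood far above the others, and the difference was 3.29 (SE 1.00, 9.75-fold, adjusted p = 0.0349). Without replicate 4 of IC, IT, KC and KT it was 2.70 and no longer called (adjusted p = 0.125), nor was it without all the doubted libraries (adjusted p = 0.0992). Ambp, which encodes alpha-1-microglobulin and bikunin, read 11.51 to 11.95 in EC and 13.66 to 15.09 in IC (2.36, SE 0.57, adjusted p = 0.00706). Ahsg, fetuin-A, which binds calcium phosphate, had the largest difference among the carriers, at 3.80 (SE 0.41, 13.9-fold, adjusted p = 6.28e-07). Hpx, the heme scavenger hemopexin (1.67, adjusted p = 0.104), and Hp, the hemoglobin scavenger haptoglobin (2.54, adjusted p = 0.256), did not pass the test, although neither overlapped between the groups. Hp read 13.58, 13.54 and 13.65 in IC replicates 1 to 3 and 16.19 in replicate 4.

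Cp, ceruloplasmin, a copper-carrying ferroxidase, was the only member with a lower mean in IC. It read 7.69, 7.36, 7.26 and 7.64 in EC and 6.05, 6.11, 5.80 and 6.80 in IC. All EC channels lay above all IC channels, and the difference of -1.30 (SE 0.56) had an adjusted p of 0.166, but Cp was called lower with the replicate number as a block (the replicate block), by the methods' t-test and in the fit of IC and EC alone. Its other probe differed by -0.06 (adjusted p = 0.999).

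Among the 10 apolipoproteins 8 were higher in IC, with a median difference of 1.97. Apob, the structural protein of very low density lipoprotein, read 7.31, 6.94, 6.85 and 7.34 in EC and 11.46, 11.70, 11.77 and 12.74 in IC. Its groups were 4.81 apart (SE 0.56, 28.0-fold, adjusted p = 1.81e-06), the largest difference of any member, and the other Apob probe gave 4.51. Apoa1, the main protein of high density lipoprotein, read 7.76 to 7.95 in EC and 10.24 to 11.24 in IC, a difference of 2.69 (SE 0.37, adjusted p = 2.09e-05). Apoc1, a small exchangeable apolipoprotein that is also made by macrophages, differed less, from 13.42 to 13.69 in EC and from 14.46 to 15.20 in IC (1.10, SE 0.31, adjusted p = 0.0197, and 0.0552 without replicate 4 of IC, IT, KC and KT). Apoa2 (0.85, adjusted p = 0.341) and Apoc2, the activator of lipoprotein lipase (1.2, adjusted p = 0.163), did not pass. The other Apoa2 probe did, at 0.98 (adjusted p = 0.0241).

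All 9 clotting factor genes were higher in IC, with a median difference of 3.08. Fgb read 11.70, 11.24, 11.29 and 11.75 in EC and 13.68, 14.09, 13.81 and 16.72 in IC. With replicate 4 again the highest, it was 3.08 higher (SE 0.68, 8.46-fold, adjusted p = 0.00318), beside 3.64 for Fga and 3.74 for Fgg, the alpha and gamma chains. F2, prothrombin, read 9.04 to 9.75 in EC and 12.43 to 13.51 in IC (3.36, SE 0.44, adjusted p = 9.81e-06). F7, which starts clotting with tissue factor, read 3.69 to 4.74 in EC, where 3 of 4 channels were well above background, and 5.73 to 7.42 in IC (2.13, SE 0.59, adjusted p = 0.0188, and 0.0542 without replicate 4 of IC, IT, KC and KT). F9, the antihemophilic factor B, had the smallest difference among the called members, at 0.80 (SE 0.21, adjusted p = 0.0146).

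All 9 inhibitor and fibrinolysis genes were higher as well, with a median difference of 3.29. Serpinf2, alpha-2-antiplasmin, the inhibitor of plasmin, read 6.88, 6.64, 6.51 and 6.99 in EC and 10.59, 10.65, 10.82 and 11.88 in IC. The groups were far apart, at 4.23 (SE 0.34, 18.8-fold, adjusted p = 5.37e-09). Plg, plasminogen, the precursor of plasmin, differed by 3.95, and Vtn by 3.49 (SE 0.33, 11.3-fold, adjusted p = 7.93e-08), from 8.33 to 8.66 in EC and 11.60 to 12.94 in IC. Serpinc1, antithrombin, read 9.65 to 9.93 in EC and 12.35 to 12.96 in IC (2.83, SE 0.48, adjusted p = 0.000246). The probe of Serpina1c, an alpha-1-antitrypsin gene, read 14.02 to 14.38 and 16.08 to 16.92 (2.16, SE 0.53, adjusted p = 0.00746). It shares a run of 47 of its 60 bases with a probe of Serpina1a and 29 with one of Serpina1e, so that its signal may hold transcripts of these near-identical genes.

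The 4 heavy chains, most of which can be linked to hyaluronan in the extracellular matrix, and the 4 complement and lectin genes were all higher in IC, with median differences of 3.67 and 3.01. Itih1 read 5.51, 5.27, 5.27 and 5.27 in EC and 9.48, 8.65, 8.86 and 10.19 in IC. It was 3.96 higher (SE 0.56, 15.6-fold, adjusted p = 2.59e-05), the third largest difference after Apob and Serpinf2. Itih3 was 2.85 higher (SE 0.64, adjusted p = 0.00353). C9, the pore-forming component of complement, read 3.06, 3.54, 4.26 and 3.00 in EC, where no channel was well above background, and 7.07, 7.27, 6.95 and 7.21 in IC. It was therefore at least 2.54-fold higher in IC (means 7.12 and 3.47, adjusted p = 9.93e-07), the bound being set, after loess and Aquantile normalization, against the dimmest signal still well above background in EC and open to dye bias.

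Other lists moved beside the members in this comparison. Of 30 hepatocyte enzymes 16 were higher in IC than in EC and none was lower (median 1.31), with, for example, Agxt, an alanine-glyoxylate aminotransferase, at 2.09 (adjusted p = 0.000464). Of 24 further plasma protein genes 17 were higher (median 1.93), and of 15 hepatocyte transcription factors 2, Hnf4a at 2.71 (adjusted p = 4.93e-06) and Onecut1. The Kupffer markers had 6 of 14 higher (median 1.49), whereas 6 of 14 endothelial markers (median -1.41) and 2 of 14 Ito markers, Col3a1 and Hand2, were lower (median -0.91). The hepatocyte enzymes had a median level of 7.26 to 7.89 in IC and 5.97 to 6.34 in EC. What part these cell types had in the members' difference was not tested.

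In Kupffer cells the group means of the members' channel medians lay between those of EC and IC. IC, EC and KC values are shared by the 3 comparisons among control cells, which are therefore not independent. Against EC, 16 members were higher in KC and 3 were lower, where 8.95% of all probes were called higher and 12.1% lower, and the median difference was 0.79. The count of higher members was smaller under several alternatives, at 5 by the methods' t-test, 6 without replicate 1, 7 with the replicate block and 8 in the fit of KC and EC alone. The hepatocyte enzymes had nearly equal means of their channel medians, 6.14 in KC and 6.16 in EC. Apob led the higher ones, at 10.64, 10.62, 10.01 and 9.27 in KC, all above the EC channels (3.02, SE 0.56, 8.13-fold, adjusted p = 0.000228). Serpinf2 read 9.73, 9.76, 8.01 and 9.43 in KC (2.48, SE 0.34, 5.58-fold, adjusted p = 4.5e-06), and F10, the factor that cleaves prothrombin, was 1.88 higher (SE 0.44, adjusted p = 0.00219). Alb was not called, at 14.21, 14.22, 11.85 and 13.67 in KC (0.53, adjusted p = 0.604). Its KC replicate 3 lay below all EC channels and the other KC replicates above them.

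The members lower in KC than in EC were Cp, Apoa2 and Apoc4. These 3 of 48 are a smaller share than the 12.1% of all probes called lower. Cp read 5.30, 4.65, 2.66 and 5.31 in KC, with 3 channels well above background, and was -3.00 apart (SE 0.56, adjusted p = 0.000232). Its other probe differed by -1.19 and was not called (adjusted p = 0.209), although every KC channel lay below every EC channel. Apoa2, a second protein of high density lipoprotein, read 12.96, 12.41, 12.40 and 12.97 in EC and 12.02, 11.90, 10.26 and 10.16 in KC (-1.60, SE 0.48, adjusted p = 0.0159). Apoc4, a minor apolipoprotein next to Apoc1 and Apoc2 in the genome, was -1.30 apart (adjusted p = 0.00609). KC replicates 3 and 4 were the low ones for Apoa2. Without the doubted libraries 28 members were higher in KC and 1 was lower, against 9.75% and 13.2% of all probes, and the median was 1.49, with Alb at 1.26 (adjusted p = 0.0459). Cp was the lower one (-2.51, and -0.86 by its other probe, adjusted p = 0.436), and 1 of 48 is again below the share of all probes. Apoa2 (-0.73, adjusted p = 0.268) and Apoc4 (-0.57, adjusted p = 0.0943) were no longer called.

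Against IC, 39 members were lower in KC and none was higher (7.57% and 7.24% of all probes), with a median of -2.14. Fewer were lower by the methods' t-test (6), with the replicate block (7), in the fit of KC and IC alone (15) and without replicate 3 (24). Gc, the vitamin D-binding protein, fell furthest (-2.63), and Alb differed by -2.49 (SE 0.56, 5.63-fold, adjusted p = 0.00255). Apoc1 alone of the members had a mean in KC above that in IC and was not called, with 14.89, 14.96, 14.19 and 15.52 in KC. All KC channels lay below all IC channels for 41 members, as for 12.1% of all probes. Without the doubted libraries 23 members were lower and none was higher, and the median was -1.1, with 8.31% of all probes called lower. Alb was then not called (-1.28, adjusted p = 0.0705). The hepatocyte enzymes moved the same way, with 20 of 30 lower in KC and 1 higher.

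TME endothelial cells showed the only called TME differences of the members with all libraries in. ET and EC were on the same arrays in opposite dyes. In ET 1 member, Itih4, was higher than in EC and 6 were lower, against 0.578% and 0.564% of all probes. The means of 41 members were lower in ET and those of 7 higher, and the median difference was -0.66, against 0.01 over all probes. At an unadjusted p under 0.05, a cut with no share of all probes beside it, 1 was higher and 17 were lower. With the replicate block, 3 were higher, F7, Itih3 and Itih4, and 12 were lower, C8a, C8b and Cp among them. That fit used the ET and EC channels alone, with the array that same-numbered channels share as the block. The fit of ET and EC alone without the block also called more members in each direction than the fit of all groups. The share of all probes called was not computed for either. Without replicate 1, 2 or 3 of all groups Itih4 was not called, and 1 to 4 members were lower. In 18 members all ET channels lay below all EC channels and in 3 above, where 6% and 7.05% of all probes did.

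Itih4, a heavy chain of the family that has no bikunin attached and is known as an acute-phase protein, read 9.66, 8.91, 9.05 and 9.74 in EC. In ET it read 12.66, 11.04, 12.69 and 12.77. The lowest ET channel, replicate 2, was still above every EC channel, and the difference was 2.95 (SE 0.64, 7.73-fold, adjusted p = 0.0149). The other Itih4 probe read 7.02, 6.04, 6.49 and 6.98 in EC and 9.62, 7.76, 9.58 and 9.67 in ET (2.53, SE 0.63, 5.76-fold, adjusted p = 0.0443).

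Of the 12 carriers, Serpina6 and Ttr fell in ET (role median -0.64). Ttr read 9.14, 9.18, 9.01 and 9.33 in ET against 10.82 to 11.30 in EC. Its channels were tight within each group and well separated, with a difference of -1.88 (SE 0.36, 3.68-fold, adjusted p = 0.00436). Serpina6, the corticosteroid-binding globulin, read 7.18, 6.47, 6.34 and 7.29 in EC and 5.40, 3.87, 4.00 and 4.63 in ET, where 3 of 4 channels were well above background (-2.35, SE 0.51, adjusted p = 0.0151). Its other probe gave -1.56 and was not called (adjusted p = 0.219). Alb did not pass, at 12.14, 13.94, 12.08 and 12.07 in ET (-0.40, adjusted p = 1). ET replicate 2 was the highest of all endothelial channels for Alb and the other ET replicates were below every EC channel.

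Among the apolipoproteins Apoa2, Apoc4 and Apoh fell (role median -0.73). Apoa2 read 10.67, 10.47, 10.49 and 10.75 in ET (-2.09, SE 0.48, 4.26-fold, adjusted p = 0.0224), and its other probe fell by 1.26 (adjusted p = 0.0201). Apoc4 read 7.93, 7.52, 7.61 and 8.12 in EC and 6.25, 5.19, 5.68 and 6.35 in ET (-1.93, SE 0.34, 3.80-fold, adjusted p = 0.00211). Apoh, the phospholipid-binding beta-2-glycoprotein I, read 9.68 to 10.19 in EC and 8.16, 8.89, 7.94 and 8.14 in ET (-1.64, SE 0.40, adjusted p = 0.038). Their EC and ET channels did not overlap in any of these 3 genes. Apoc3, an inhibitor of triglyceride clearance, was just outside the threshold (-1.71, adjusted p = 0.0505), and its other probe differed by 0.06.

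F12, Hageman factor, which starts contact activation, was the only clotting gene that fell, from 4.90 to 5.62 in EC to 3.42 to 4.42 in ET (-1.18, SE 0.29, adjusted p = 0.0355). It was not well above background on every ET channel, and without ET replicate 2 it was not called (-1.24, adjusted p = 0.0601). None of the 9 inhibitors was called, although all 9 had lower means in ET (role median -0.93), among them Serpina3k (-1.43, adjusted p = 0.086) and Serpinc1 (-1.35, adjusted p = 0.293). None of the 4 complement and lectin genes was called either (role median -1.34). C8a and C8b, subunits of the membrane attack complex, read 6.10 to 6.46 and 6.42 to 6.66 in EC and 4.25 to 4.57 and 4.70 to 5.20 in ET, with differences of -1.80 (adjusted p = 0.115) and -1.69 (adjusted p = 0.101). Their channels did not overlap between the groups, but C8a was not well above background on every ET channel. The other C8a probe differed by only -0.31.

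Leaving out ET replicate 2 gave 1 member higher, Itih4 (3.37, SE 0.67, adjusted p = 0.00851), and 4 lower, Apoc3, Apoc4, Apoh and Ttr, with 0.474% and 0.458% of all probes called. Leaving out the doubted Ito and Kupffer libraries kept every endothelial channel and changed only the pooled spread, and then 2 members were higher, Itih4 and Itih3, and 17 were lower, against 1.93% and 1.69% of all probes. Leaving out replicate 4 of IC, IT, KC and KT alone gave 2 higher and 8 lower (0.835% and 0.806%). Itih3 read 8.98, 8.73, 8.79 and 8.99 in EC and 10.25, 9.86, 10.12 and 10.22 in ET, 1.24 apart. Its adjusted p was 0.709 with all libraries and 1.64e-08 without those libraries. Of the hepatocyte enzymes 11 of 30 fell in ET and none rose (median -0.87). Their median level was 4.45 to 5.34 in ET and 5.97 to 6.34 in EC. The 10 neutrophil markers had a median level of 6.49 to 8.51 in ET and 4.43 to 5.26 in EC, and none of them was called. The endothelial markers read 11.35 to 11.92 in ET and 12.46 to 12.82 in EC. The T and NK cell markers read 8.07 to 8.66 against 7.09 to 7.44, and the cycling genes 5.49 to 7.72 against 4.41 to 5.02, in each case without overlap. The part of these cells in the members' difference was not tested.

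**Figure D3:**
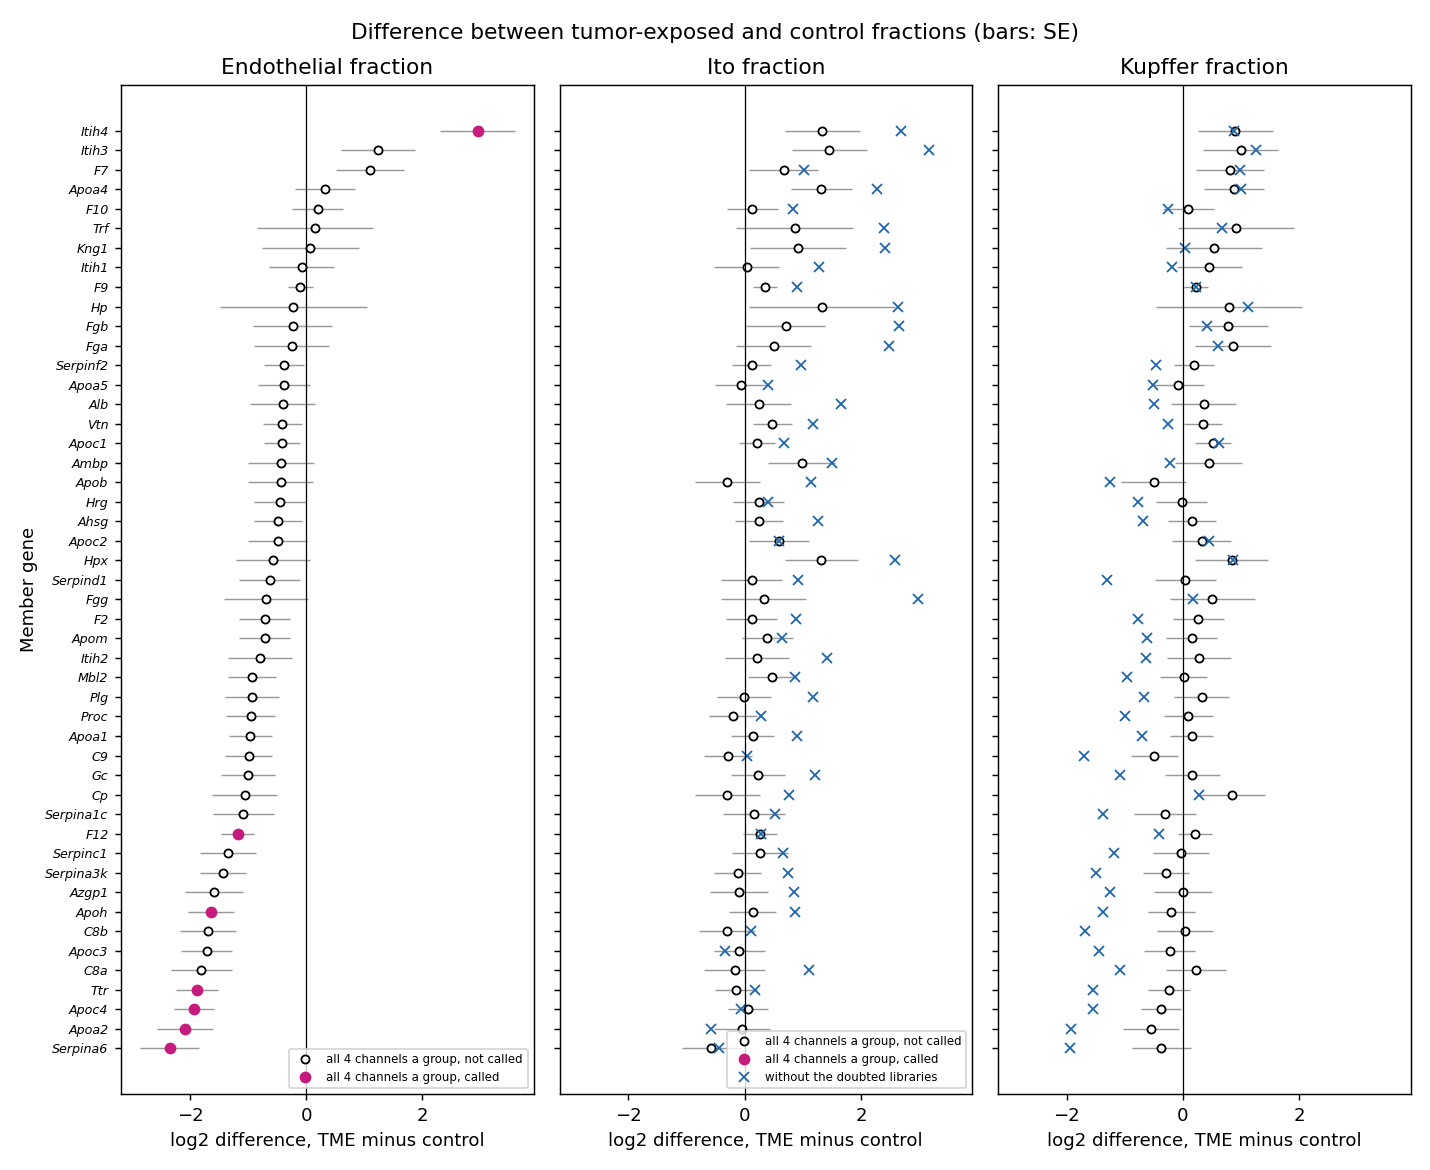
TME minus control difference (log2) of each of the 48 members in the endothelial, Ito and Kupffer fractions, as circles with the SE over all channels (filled where called) and as crosses without replicate 4 of IC, IT, KC and KT, IT replicate 2 and KC replicate 3. In endothelial cells 41 circles lie below 0 and those of Itih4 and Itih3 lie above, while no circle is filled for Ito or Kupffer cells.

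In Ito cells no member was called between IT and IC with all libraries in, against 0.269% of all probes higher and 0.0198% lower, by limma and likewise by the methods' t-test after adjustment. At an unadjusted p under 0.05 limma gave 4 higher and none lower, with no share of all probes computed at that cut. The median difference was 0.22. The values of the acute-phase members were split by array. Itih3 read 10.77, 11.01, 10.99 and 14.12 in IC and 14.15, 13.61, 14.06 and 10.93 in IT. Hpx read 13.28, 13.53, 13.29 and 16.30 in IC and 16.00, 16.38, 15.91 and 13.41 in IT. In both genes replicate 4 of each group lay near the values of the other group, and in replicates 1 to 3 every IT value was above every IC value. Hp had the same layout, with 16.19 in IC replicate 4 and 13.76 in IT replicate 4.

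Without replicate 4 of IC, IT, KC and KT, 5 members were higher in IT and none was lower, against 3.69% and 3.97% of all probes. These were Itih3 (3.01, adjusted p = 3.12e-07), Itih4 (2.65, adjusted p = 0.00205), Hpx (2.73), Apoa4 (2.21) and F9 (0.71). When IT replicate 2 and KC replicate 3 were left out as well, 16 were higher and none was lower, against 6.12% and 6.21% of all probes, with a median of 0.90. They included the fibrinogen chains Fga (2.49), Fgb (2.65, adjusted p = 0.00258) and Fgg (2.99, adjusted p = 6.66e-08), Hpx (2.59, adjusted p = 0.000118), Itih3 (3.18, adjusted p = 7.95e-13), Itih4 (2.69, adjusted p = 0.000819) and Alb (1.66, adjusted p = 0.0223). IT then held only replicates 1 and 3 and IC replicates 1 to 3. Leaving out only IT replicate 2 and KC replicate 3 called no member. The hepatocyte enzymes had 1 higher and 3 lower of 30 in IT in the narrower set (median -0.04), while 5 of 10 neutrophil and 6 of 8 T and NK cell markers were higher. The part of those cells was not tested.

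In Kupffer cells no member was called either, against 0.372% of all probes higher and 0.0647% lower, and at an unadjusted p under 0.05 limma gave none and the methods' t-test 1 higher and none lower. The median difference was 0.20. Itih3 read 9.88, 9.83, 8.20 and 11.20 in KC and 11.05, 11.11, 11.17 and 9.73 in KT, again with replicate 4 of each group at the level of the other. Ttr read 11.29, 11.13, 9.18 and 9.68 in KC and 9.71, 9.66, 9.65 and 11.31 in KT. KT replicate 4 was thus at the level of KC replicates 1 and 2, and KC replicates 3 and 4 at that of the other KT channels.

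Without the doubted libraries 1 member was higher in KT, Itih3 (1.26, adjusted p = 9.82e-07), and 10 were lower, against 2.3% and 2.56% of all probes, with a median of -0.63. The 1 higher member of 48 is close to the share of all probes. The lower ones were Ttr (-1.54, adjusted p = 5.9e-07), Serpina6 (-1.95), Apoa2 (-1.93), Apoc4 (-1.54), Apoh (-1.37), Serpina3k (-1.50), Gc (-1.09), C8a (-1.09), C8b (-1.69) and C9, whose KT channels in that set were not well above background. The other probes of Serpina6 (-1.65, adjusted p = 0.00566) and Apoa2 (-1.17, adjusted p = 0.0034) were lower as well. Those of Gc (-0.81, adjusted p = 0.537) and C8a (-0.03) were not called. The fit without array 4 alone gave Itih3 higher (1.81, adjusted p = 0.00043) and C9 lower (adjusted p = 0.0169), against 1.75% and 2.1% of all probes. Of 48 members, 1 in either direction is close to those shares. Of the 30 hepatocyte enzymes 12 were lower in KT in the narrower set and none was higher (median -0.89).

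Whether the TME difference itself differed between cell types was tested as a contrast of differences. With all libraries no member was called between the endothelial and Ito differences, where 0.0269% and 0.0844% of all probes were, nor between the endothelial and Kupffer (0.018% and 0.0629%) or the Ito and Kupffer differences (0.0018% in either direction). At an unadjusted p under 0.05, 14 members had a lower difference in endothelial than in Ito cells and none a higher one. The share of all probes at that cut was not computed, so that this count alone shows no difference between the cell types. Without the doubted libraries 23 members had a lower TME difference in endothelial than in Ito cells (2.62% of all probes). In endothelial against Kupffer cells 1 had a lower one, C8a (-0.71, adjusted p = 0.0164), beside 0.576% of all probes. The other C8a probe gave -0.28 there and was not called (adjusted p = 0.985). In Ito cells 13 had a higher one than in Kupffer cells, beside 0.614%. Those fits rest on 2 IT and 2 KC channels.

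**Figure D4:**
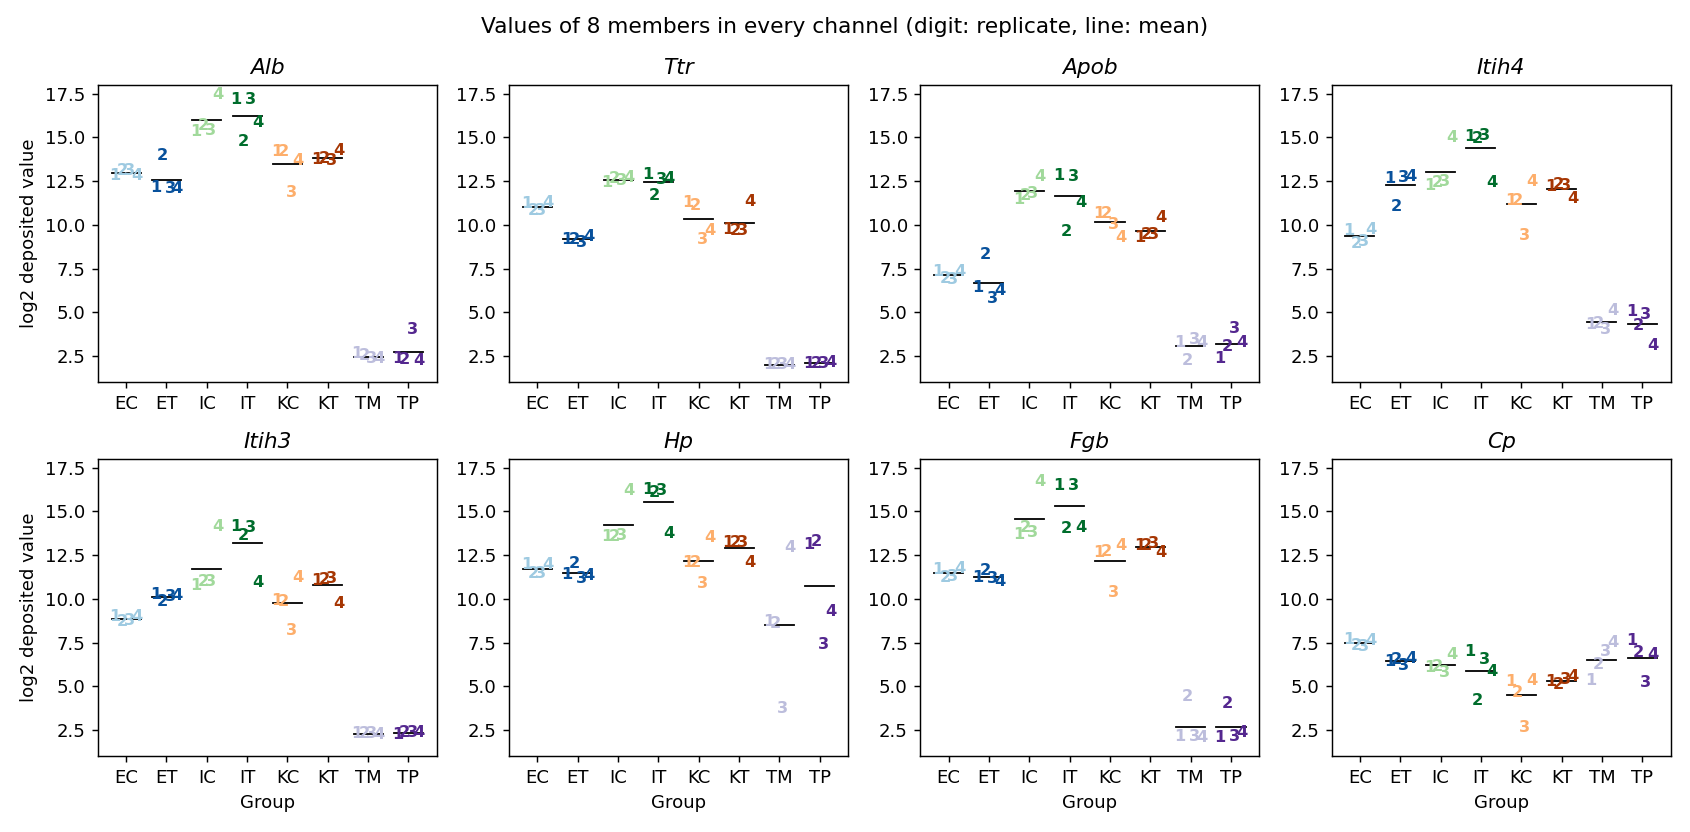
Log2 intensity of Alb, Ttr, Apob, Itih4, Itih3, Hp, Fgb and Cp in each of the 32 channels by group, each digit a replicate and each line a group mean. Replicate 4 of IC and IT and of KC and KT changes places with the opposite group for Itih3 and Hp, and Itih4 is higher in all 4 ET channels than in EC.

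In the carcinoma samples most members were at background. TM was set against KC and TP against KT, which shared the dye and the slide, and 46 members were lower in TM and 1 was higher (16.2% and 23.3% of all probes), while 45 were lower in TP and none was higher (17.8% and 25.7%). Alb read 2.65, 2.55, 2.34 and 2.33 in TM and 2.36, 2.27, 4.02 and 2.25 in TP, and no channel was well above background. It was at least 118-fold lower in TM than in KC (means 2.47 and 13.49, adjusted p = 5.47e-15) and at least 141-fold lower in TP than in KT (means 2.73 and 13.85, adjusted p = 4.12e-15). For 33 members in TM and 35 in TP the probe used gives only such a bound, with a median of 7.64-fold and 7.87-fold. For Serpina1c the bound was 174-fold in TM, for Ahsg 92.4-fold in TM and 82.2-fold in TP, and for Fgb 59.6-fold and 89.3-fold. Apoc1, well above background on 3 of 4 TM channels, was 9.61 lower on the log2 scale than in KC (SE 0.31, adjusted p = 4.04e-19).

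By the probe used, a few members stood above background in the carcinoma samples. The other Apoa2 probe was well above background on all 4 TM and all 4 TP channels (means 10.26 and 10.18). It differed by -2.21 between TM and KC and by -1.95 between TP and KT. The other probes of Apoc3 (TM and TP means 5.63 and 5.85), F10 (12.18 and 11.92) and Trf (6.72 and 7.16) were above background on most or all tumor channels. F9 had group means between 7.24 in TM and 8.58 in IT and was above background on all channels. It differed by -0.16 between TM and KC (adjusted p = 0.613) and by 0.04 between TP and KT (adjusted p = 0.931). Cp read 5.32, 6.23, 7 and 7.52 in TM and 7.60, 6.95, 5.20 and 6.82 in TP. It was 2.03 higher in TM than in KC (SE 0.56, 4.09-fold, adjusted p = 0.00399), the only member that was higher, though it was not called with the replicate block, by the methods' t-test, from the mean of its probes or in the fit of TM and KC alone. It was 1.31 higher in TP than in KT (adjusted p = 0.0593). Its other probe had means of 11.64 in TM and 10.99 in KC.

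Hp was the most uneven of the members in tumor samples, at 8.69, 8.58, 3.73 and 12.94 in TM and 13.10, 13.27, 7.37 and 9.30 in TP. TM replicate 4 and TP replicates 1 and 2 reached the level of KC and KT, and the others did not. Hp was 3.65 lower in TM than in KC (SE 1.26, adjusted p = 0.0217) and was not called between TP and KT (-2.17, adjusted p = 0.182). Without replicate 4 of IC, IT, KC and KT the former call was lost (adjusted p = 0.071), and without TM replicates 1 and 4 it was -5.98 (adjusted p = 0.000432).

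Between TM and TP 2 members were called lower in TM and none higher (2.05% and 0.961% of all probes). Neither was called under the 75th percentile, both normexp settings, the mean of probes, the fit of TM and TP alone, the replicate block, the methods' t-test, or without replicate 1, 2 or 3. Kng1, kininogen, the source of bradykinin, read 6.31, 3.99, 3.06 and 8.82 in TM, with 2 channels well above background, and 9.81, 8.75, 7.43 and 8.88 in TP (-3.17, SE 0.83, 9.01-fold, adjusted p = 0.0323). TM replicate 4 overlapped the TP values, and the other Kng1 probe was not well above background in either group. F10 read 3.86, 2.37, 2.15 and 5.18 in TM and 5.58, 4.58, 4.49 and 5.23 in TP, with 1 channel of each well above background (-1.58, adjusted p = 0.0439). Without TM replicates 1 and 4, the pair with the widest gap towards TP, 4 of the 48 members were lower, about the same share as the 8.28% of all probes. They were Kng1 (-5.19, adjusted p = 7.94e-06), F10 (-2.71, adjusted p = 3.36e-06), Hp (-4.61, adjusted p = 0.0133) and Apoc1. The TM channels kept were then not well above background for Kng1 and F10, so that these sizes are no measured fold.

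At the stricter call of the study's methods, an adjusted p under 0.001 and at least 4-fold, 27 members were higher in IC minus EC (0.684% of all probes), while in KC minus EC 2 were higher and 1 was lower (1.89% and 0.742%), and in KC minus IC 13 were lower (0.338%). In TM minus KC 44 were lower (7.45%) and in TP minus KT 43 (8.25%), and none was higher in either, where 6.85% and 7.68% of all probes were. No member was called in ET minus EC (0.102% of all probes higher and 0.0629% lower), in IT minus IC (0.0916% higher), in KT minus KC (0.111% higher) or in TM minus TP (0.0198% higher and 0.388% lower).

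The members varied together across the liver channels, apart from a few. Over the 24 endothelial, Ito and Kupffer channels, 30 of the 48 members correlated at r above 0.9 with the median of the other members and 38 above 0.8, with a median r of 0.93. Cp had the lowest value, -0.04, followed by Apoa2 (0.60), Itih4 (0.65), Apoc1 (0.68) and F7 (0.71). The channels share group, array and dye, so that these values only describe the set.

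Members that are neighbours in the genome could differ in their TME difference. Within 500000 bases of one another lay 23 members in 8 clusters. In the Itih cluster on chromosome 14, which spans 27.5 kb between the probes, the endothelial TME difference was 2.95 for Itih4, 1.24 for Itih3 and -0.08 for Itih1, each with a positive IC minus EC difference of 2.85 to 3.96. In the Apoc cluster on chromosome 7 (17.9 kb) it was -0.49 for Apoc2, -1.93 for Apoc4 and -0.42 for Apoc1. The fibrinogen genes on chromosome 3 (27.6 kb) stayed close to each other, at -0.25 for Fga, -0.23 for Fgb and -0.69 for Fgg. The differences within these clusters were not tested against each other.

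Probes of one gene mostly ran in parallel, at r of 0.92 or more over 32 channels for 8 of the 13 genes with 2 probes. Fga (0.86), C8a (0.89), Cp (0.62), F10 (0.48) and Apoc3 (-0.17) were lower. The second F10 probe, at chr8:13056223-13056290, is made of A and G alone, as are 23 of the 55681 probes, whereas the F10 probe that was used is not. Their letters are shown because of this difference, with G in capitals in the second.
F10 probe used at chr8:13055774-13055833: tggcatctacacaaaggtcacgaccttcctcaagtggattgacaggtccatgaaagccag
F10 other probe, first 30 bases: aGaaaGaaaGaaaGaaaGaaaGaaaGaaaG
In IC the second probe read 13.17, 13.54, 16.71 and 12.91, with replicate 3 the highest, where the first read 10.31, 10.43, 10.56 and 11.28. The second Apoc3 probe lay between 4.89 and 5.95 in all EC, ET, IC and KC channels, with a difference of 0.31 between IC and EC, while the first spanned 7.92 to 11.97 in these groups.

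**Figure D5:**
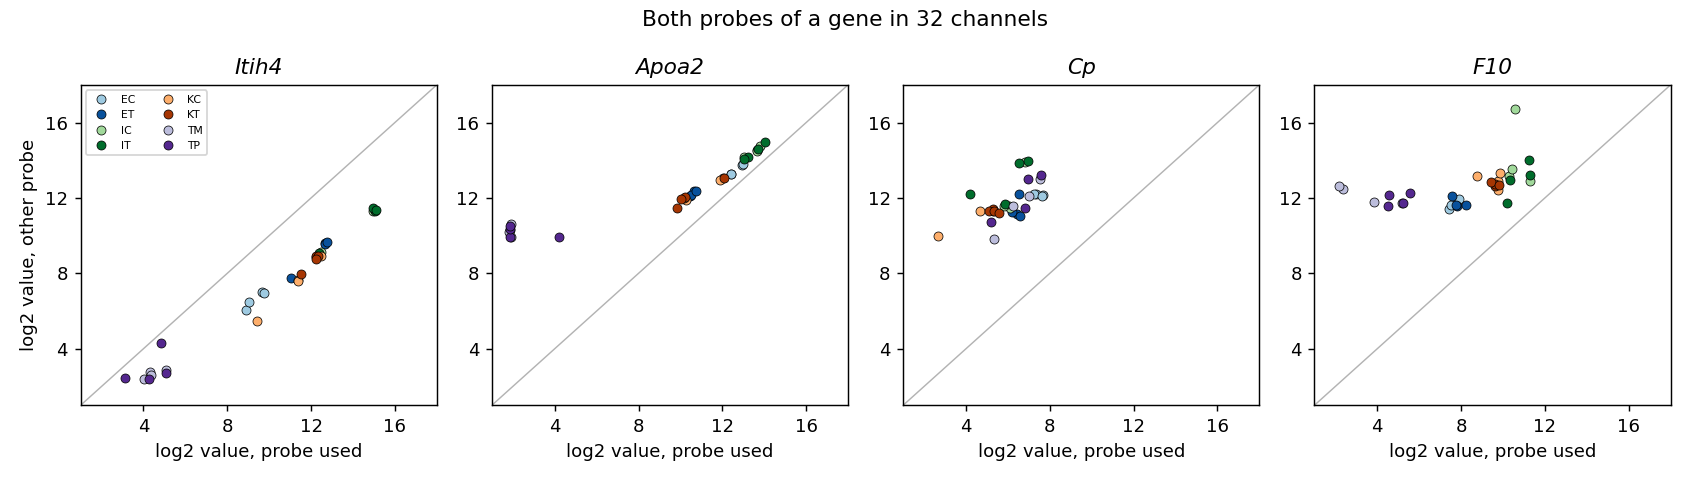
Log2 intensity of the second probe (vertical axis) against the used probe (horizontal axis) of Itih4, Apoa2, Cp and F10 in the 32 channels, coloured by group. The Itih4 and Apoa2 probes follow each other (r = 0.99 and 0.93), and those of Cp and F10 do so less (r = 0.62 and 0.48).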

How the data were processed

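Messenger RNA was measured with 2-colour Agilent mouse arrays, 4 channels in each of 8 groups, and the groups, dyes and replicate numbers come from the labels. The authors deposited scanner intensities per spot and a table of linear intensity per probe and channel, which follows the scanner's processed signal after quantile normalization of the 32 channels (r = 1 per channel, median absolute gap on the log2 scale at most 0.0568). The log2 of that deposited intensity was used here, with no offset and no further scaling. No column remained unmapped (0).

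All 32 channels were fitted to the 8 groups in limma 3.58.1 under R 4.3.3 (lmFit and eBayes), with Benjamini-Hochberg adjustment over 55681 probes and a call at an adjusted p under 0.05. An exact permutation test of 4 channels against 4 cannot give a two-sided p below 0.0286, so it was not used for calls. Where no channel of a group was well above background, a bound was computed on channels normalized by loess and Aquantile. For a gene with 2 probes, the one with the highest variance over the 32 channels stands for it. Every member may be named. Values per channel are given for preset representatives of each role, for the largest called differences and for members called against the direction of most. The members, the roles, the other lists and the tests were chosen with earlier results of these data known. P-values of the main fit rest on the spread between channels within a group, pooled over all 8 groups, tumor and doubted libraries included. They do not measure the spread of the groups compared alone, and the number of arrays limits the precision. The fits were tested on simulated data with known changes.

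The alternatives were the scanner's processed signal, normexp background correction (offset 50) with quantile or with loess and Aquantile normalization, scaling to the 75th percentile, a filter on probes well above background, the mean of a gene's probes, a fit of only the groups compared, a block for the replicate number, the methods' t-test, an adjusted p under 0.001 with at least 4-fold, each replicate number left out in turn, and the sets of libraries named with the results, which were chosen after seeing the data. Promoters were matched by symbol to RefSeq windows of GRCm38.p6. Probe positions are those of mm9 in the array files. Some genes of the other lists are not reported here by name.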

Additional observations from a re-analysis of the deposited data

Results flagged for a closer look

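Within the groups of 4 channels, 44 values lay far from the other 3, with a gap to the nearest channel that took more of the group's range than Dixon's critical value allows. These came from the genes listed below and from the members' median, over 155 groups tested, and chance alone marks about 5% of such groups. Different genes were read on the same channels and are not independent, so that the count cannot be weighed against that share. All values are log2 intensities.

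In IC, replicate 4 was far above the other channels. The members' median was 12.14 there, and the single values were 17.45 for Alb, 16.32 for Trf, 11.24 for Apoa1, 15.2 for Apoc1 and 16.72 for Fgb. They were 12.94 for Vtn, 16.3 for Hpx, 16.19 for Hp, 15.09 for Ambp, 14.12 for Itih3, 12.92 for Apoh, 14.97 for Itih4 and 15.72 for Kng1. In IT, replicate 4 was far below the others, with 16.01 for Serpina1c, 13.41 for Hpx, 13.76 for Hp, 10.93 for Itih3 and 12.4 for Itih4, and replicate 2 was low for C9, at 5.88.

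In KT, replicate 4 was high for the members' median (9.85) and for Ttr (11.31), Apoa1 (9.07), Apob (10.41), Serpinc1 (11.55), Serpina1c (14.76), Apoa2 (12.08), Apoh (10.94) and Serpina6 (8.43). The same channel was low for Trf (13.35), Apoc1 (14.94), Hpx (11.84), Hp (12.07), Itih3 (9.73) and Itih4 (11.5). In KC, replicate 3 was low for Fgb (10.38), Vtn (8.68), F10 (8.75) and Kng1 (10). In ET, replicate 2 was high for Alb (13.94), F2 (9.34), Vtn (8.46) and Hpx (12.98) and low for Itih4 (11.04).

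No TME difference of a member differed between cell types in the test of the difference with all libraries. What set these channels apart was not tested.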

How the results depend on the processing

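No member called with all libraries reversed its direction in the alternatives checked for single members, but counts moved. Without replicate 4 of the Ito and Kupffer groups, IT replicate 2 and KC replicate 3, 13 of 24 counts moved by over 1.5 times or from 0. KT minus KC, with none called at first, then had more members lower than higher. The scanner's processed signal and the fit without ET replicate 2 moved no count by over 1.5 times. At an adjusted p under 0.001 and 4-fold, ET minus EC gave 0 higher and 0 lower, IC minus EC 27 higher, KC minus EC 2 higher and 1 lower, KC minus IC 13 lower, TM minus KC 0 higher and TM minus TP 0 lower. The 2 members lower in TM than in TP became 0 under the 75th percentile, both normexp settings, the mean of probes and the fit of only the groups compared, and 1 under the filter on background. Normexp with loess gave 1 lower in the endothelial against Ito contrast, and both normexp settings gave 1 lower in IC minus EC and 1 higher in TP minus KT, the latter also under the filter. The mean of probes gave 0 higher in TM minus KC. Fits of only the groups compared gave 2 higher and 16 lower in ET minus EC, 1 lower in IC minus EC, 8 higher and 1 lower in KC minus EC, 15 lower in KC minus IC and 0 higher in TM minus KC. The methods' t-test gave 2 and 12, 1, 5 and 1, 6, 0 and, for TM minus TP, 0. The cause of these shifts was not tested. The share of all probes called was not computed for the normexp settings, the mean of probes, the fits of only the groups compared, the t-test or the block. Nor was it computed for the processed signal, the 75th percentile, the filter or counts at an unadjusted p. The same holds for the fits without a replicate number and the fit without only IT replicate 2 and KC replicate 3.

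Same-numbered control and TME channels, and TM and TP channels, shared an array. Their deviations from the group means correlated at 0.40, 0.34, 0.05 and 0.19 for the endothelial arrays and from -0.64 to 0.23 for the others, so that the array did not give a positive value above 0.1 in every pair. With the replicate block the counts were 3 higher and 12 lower in ET minus EC, 1 lower in IC minus EC, 7 higher and 1 lower in KC minus EC, 7 lower in KC minus IC, 0 higher in TM minus KC and 0 lower in TM minus TP.

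Without replicate 4 of IC, IT, KC and KT there were 2 higher in ET minus EC, 5 lower in the endothelial against Ito contrast, 5 higher in IT minus IC, 1 higher and 1 lower in KT minus KC and 1 lower in TM minus TP. Without IT replicate 2 and KC replicate 3 there were 11 lower in ET minus EC, 1 lower in the endothelial against Ito contrast, 1 lower in IC minus EC, 25 higher in KC minus EC and 1 higher in TP minus KT. Without both sets there were 2 higher and 17 lower in ET minus EC, 23 lower in the endothelial against Ito contrast, 1 lower in the endothelial against Kupffer and 13 higher in the Ito against Kupffer contrast, 1 lower in IC minus EC, 16 higher in IT minus IC, 28 higher and 1 lower in KC minus EC, 23 lower in KC minus IC, 1 higher and 10 lower in KT minus KC and 1 higher in TP minus KT. Without TM replicates 1 and 4 there were 4 lower in TM minus TP and 1 higher in TP minus KT.

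Leaving out each replicate number in turn gave 0 to 1 higher and 1 to 4 lower in ET minus EC, 33 to 40 higher in IC minus EC, 0 to 5 higher in IT minus IC, 6 to 17 higher and 2 to 3 lower in KC minus EC, 24 to 35 lower in KC minus IC, 0 to 1 in either direction in KT minus KC, 0 to 1 higher and 45 to 46 lower in TM minus KC, 0 to 3 lower in TM minus TP, 0 to 1 higher and 44 to 45 lower in TP minus KT, and 0 to 3 lower in the endothelial against Ito contrast. Contrasts between cell types were not run for the fits of only the groups compared, the block, the t-test, the filter or the mean of probes. Members not above background in a group have a bound there and no level.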
